A study of Mus musculus with 4 samples.

Results

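RNA levels of the amino acid transporter genes were compared between flat (2D) and Matrigel-embedded (3D) cultures of AML12 cells. The genes were all protein-coding rows of the gene table whose symbol places them in the solute carrier families Slc1, Slc3, Slc6, Slc7, Slc36, Slc38 or Slc43. This rule, which used no measured value, found 61 of the 31828 genes in the table, 18623 of which are protein-coding. It also takes in Slc7a6os, a gene named for its place opposite Slc7a6 that is not a transporter, and leaves out 3 antisense genes with matching symbols.

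AML12 (alpha mouse liver 12) is an immortalised hepatocyte line from a mouse that carried a transgene for human transforming growth factor alpha. The study set cells of a 2D culture in dishes against cells embedded in Matrigel, a basement membrane extract, and asked how growth in 3D changes genome structure and gene expression. RNA-seq was done on 2 libraries of each culture, and nothing in the labels says whether these came from separate cultures, so the p-values measure only the spread between these libraries. Both cultures had the same medium, with fetal calf serum, insulin, transferrin, selenite and dexamethasone, and both received 1 mM hydroxyurea, which blocks DNA replication. The 2D cells had it for 24 h and the 3D cells for 36 h. The effect of the culture and that of the longer treatment cannot be told apart. The values are TPM, transcript abundance per length within a library, which allows levels of different genes to be compared but keeps no record of sequencing depth.

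Amino acids cross membranes on carriers that differ in which side chains they accept and in what drives them. Some exchange an amino acid outside for one inside, some use the sodium or proton gradient to concentrate amino acids, and some let them flow down their own gradient. The light chains of Slc7 reach the cell surface only as a disulphide-linked pair with a heavy chain of Slc3. In the liver these carriers supply substrates for protein synthesis, urea formation, gluconeogenesis, glutathione and bile acid conjugation, and those on lysosomes report amino acid supply to mTORC1, the kinase complex that controls growth.

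In each library 13891 to 14256 genes reached 1 TPM, and mitochondrial genes took 5.37% to 6.78% of the TPM. Hepatocyte identity was partial. Hnf4a, Krt8 and Krt18 were expressed in all 4 libraries. Of 9 tested hepatocyte markers 6 were higher and 2 lower in 3D (88.9% called, against 50.5% of all genes tested), with a median log2 fold change of 1.33. The largest rises were those of Ttr, Trf and Alb, at 4.24, 3.54 and 2.62 in log2 units (limma adjusted p 0.000211, 9.63e-05 and 0.00069). Hnf4a rose by 1.47 (limma adjusted p 0.000241). Alb stood at 0.819 and 1.20 TPM in 2D and at 12.7 and 10.0 TPM in 3D, whereas the keratins Krt18 and Krt8 fell by 0.91 and 0.82 in log2 units (limma adjusted p 0.000241 and 0.000287). Cps1, Tat, Cyp2e1, Serpina1a and Apoa2 stayed under 1 TPM throughout. Among defining markers of other cells, Ptprc, Pecam1, Cdh5, Col1a1 and Col3a1 were under 1 TPM in every library, and Col3a1 was listed at 0 in 3 of them. The neuronal genes Rbfox3 and Snap25 lay between 1.37 and 3.57 TPM. The summed level of 5 neuron and astrocyte markers was 11.02 and 11.2 TPM in 2D and 14.9 and 12.8 TPM in 3D, with Snap25 and Gfap higher in 3D. For 8 fibroblast and stellate cell markers the sum was 749.3 and 703.3 TPM in 2D and 303.9 and 293.3 TPM in 3D, most of it Vim. The 7 leukocyte markers summed to 22.4 to 23.3 and 24.0 to 27.3 TPM, most of it Cd68, which was not called (0.31, limma adjusted p 0.0577), while Cd3e, tested only because of its level in 2D, fell by 0.94 (limma adjusted p 0.00555). The bile duct and progenitor markers summed to 2401.8 and 2294.3 TPM in 2D and 2269.3 and 2357.2 TPM in 3D, with 2 of 4 tested higher and 2 lower. Spp1 rose by 2.35 while Krt19 and Krt7 fell by 0.49 and 0.65 in log2 units (limma adjusted p 0.000317, 0.00138 and 0.000577). The part of these markers in the differences between the cultures was not tested, and in bulk RNA fewer cells of a kind cannot be told apart from less RNA per cell.

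Most of the transporter RNA came from a few genes. Slc3a2, the heavy chain partner of most light chains, made up 43.02% and 40.8% of the summed TPM of all members in 2D and 39.0% and 38.5% in 3D. Together with Slc6a8, Slc38a2, Slc38a10 and Slc6a6 it made up 67.8% of the member TPM over the 4 libraries. A further 14 members with a mean of 10 to 100 TPM held 29.7%, and 13 members with a mean of 1 to 10 TPM held 2.31%. The other 29 members had a mean under 1 TPM and held 0.224%. Summed over all 61 members, the level was 1836.1 and 1837.4 TPM in 2D and 2160.3 and 2139.7 TPM in 3D, a ratio of 1.17.

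**Figure D1:**
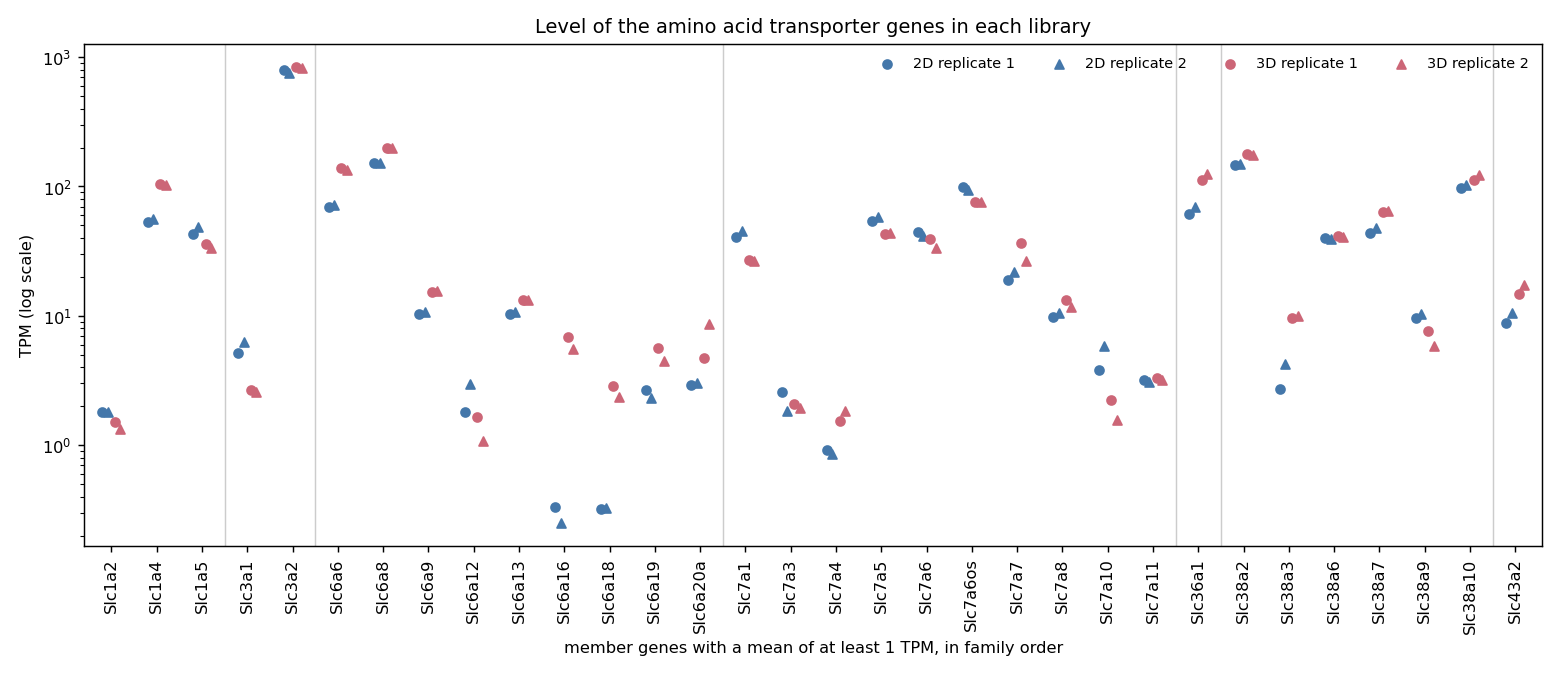
TPM (log axis) of the 32 members with a mean of at least 1 TPM in each of the 4 libraries, in family order, with blue symbols for 2D and red symbols for 3D. Slc3a2 stands above the rest at 750.1 to 841.8 TPM, and the widest gaps between the cultures are those of Slc6a16 and Slc6a18.

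The 32 members with a mean of at least 1 TPM were tested. Of these, 17 rose and 7 fell in 3D at an adjusted p-value under 0.05 (limma on log2(TPM + 1), adjusted over all 14116 genes tested). In percentages, 53.1% of the tested members were higher and 21.9% lower, where 23.4% of all genes tested were higher and 27.1% lower. Together 75.0% were called, against 50.5% of all genes tested. The 2D and 3D libraries did not overlap for 31 of the 32 (96.9%, against 77.5% of all genes), Slc7a3 being the exception. The median log2 fold change, 3D over 2D, was 0.27 over these members and -0.04 over all genes tested. Among the 176 other Slc genes tested, 67 (38.1%) were higher and 29 (16.5%) lower, with a median of 0.16. Slc6a16, Slc6a18 and Slc7a4 had a mean under 1 TPM in 2D and were tested only because of their level in 3D, so their inclusion depends on the difference itself.

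The differences were mostly small. A called difference of over 1 in log2 units was seen for 3 members in the direction of 3D (9.38%, against 4.37% of all genes), namely Slc6a16, Slc6a18 and Slc38a3. Of these, Slc6a16 and Slc6a18 had passed the minimum only through their level in 3D, so the 9.38% depends in part on the difference itself. In the direction of 2D there were 0 members (against 3.83% of all genes), where Slc7a10 came nearest at -0.99. This 0 depends on the pseudocount of 1. With a pseudocount of 0.1, Slc7a10 stood at -1.29 and Slc3a1 at -1.08 (limma adjusted p 0.0210 and 0.00535). Their ratios of means, 3D over 2D, were 0.394 and 0.460. In the direction of 3D, Slc6a20a then also passed 1, at 1.08 (limma adjusted p 0.0400). No share of all genes was computed at that setting. The replicate libraries of a culture differed by a median of 0.0874 in 2D and 0.0873 in 3D on the log2 scale over the 32 members. The widest replicate gaps were 0.51 for Slc7a10 in 2D and 0.75 for Slc6a20a in 3D. With any of the 4 libraries left out, 14 of the 24 calls held, 10 of them higher and 4 lower in 3D. The other 10 are given with their genes, each with the library and the limma adjusted p without it. In those fits 1 culture has a lone library, which is assumed to vary like the others. Slc6a16 and Slc6a18 were among the higher calls that held, though both had passed the minimum only through 3D. The minimum was still applied to the mean of all 4 libraries in each of those fits, so that selection was not redone.

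**Figure D2:**
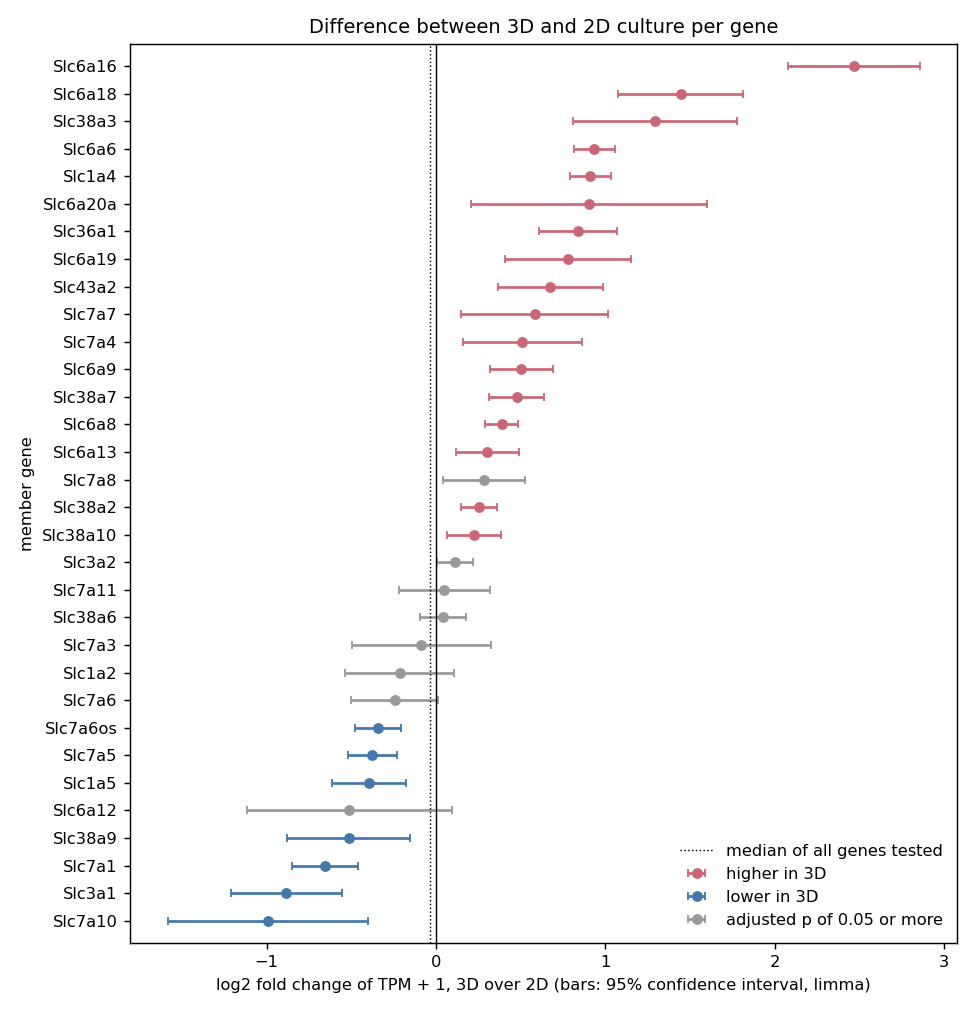
Log2 fold change of TPM + 1, 3D over 2D, with the 95% confidence interval from limma for the 32 tested members, sorted by size. Red marks the 17 higher and blue the 7 lower in 3D at an adjusted p-value under 0.05, grey the 8 others, and the dotted line is the median of all genes tested, -0.04.

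By family, Slc6 rose in most of its tested members (8 of 9 higher and 0 lower by limma, also 0 lower at an unadjusted p under 0.05) and Slc7 in few (2 of 10 higher, 4 lower). Of the 8 in Slc6, Slc6a16 and Slc6a18 were among those tested only because of their level in 3D. The calls of Slc6a13, Slc6a19 and Slc6a20a were lost without some library. The Slc6 count of 8 was 7 with a pseudocount of 5, the replicate number as a block or a constant prior variance. It was 6 with no minimum on TPM. The share of Slc7 that was higher is near the 23.4% of all genes, and its count of 2 fell to 0 with no minimum on TPM, with the replicate number as a block, and without 2D replicate 1, 2D replicate 2 or 3D replicate 1. Slc38 had 4 of 6 higher and 1 lower, and Slc1 had 1 higher and 1 lower of 3. The only tested members of Slc36 and Slc43 were both higher, and Slc3 had 1 of 2 lower. The summed TPM of Slc6 went from 252.6 ± 2.44 in 2D to 386.2 ± 2.25 in 3D (SD, n = 2 each). For Slc7 the sum was 281.0 ± 2.75 and 236.2 ± 12.4 TPM (SD, n = 2 each), and without Slc7a6os 184.5 ± 7.11 and 160.4 ± 12.9 TPM. The Slc38 sum was 349.0 ± 11.2 and 417.6 ± 4.56 TPM, and that of Slc1 102.6 ± 5.44 and 140.1 ± 2.67 TPM (SD, n = 2 each). In each of the 7 families both 3D sums lay on the same side of both 2D sums. Of all single genes tested, 77.5% did not overlap between the cultures, and no such share was computed for sums of genes. The sums are given with no test. Some sums rested on the leading member. Without Slc1a4 the log2 ratio of the Slc1 sums turned from 0.45 to -0.40, without Slc3a2 that of Slc3 from 0.11 to -1.12, and without Slc43a2 that of Slc43 from 0.71 to -0.75. The members left in Slc43 were all under 1 TPM and not tested, so its value rests on very low levels.

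**Figure D3:**
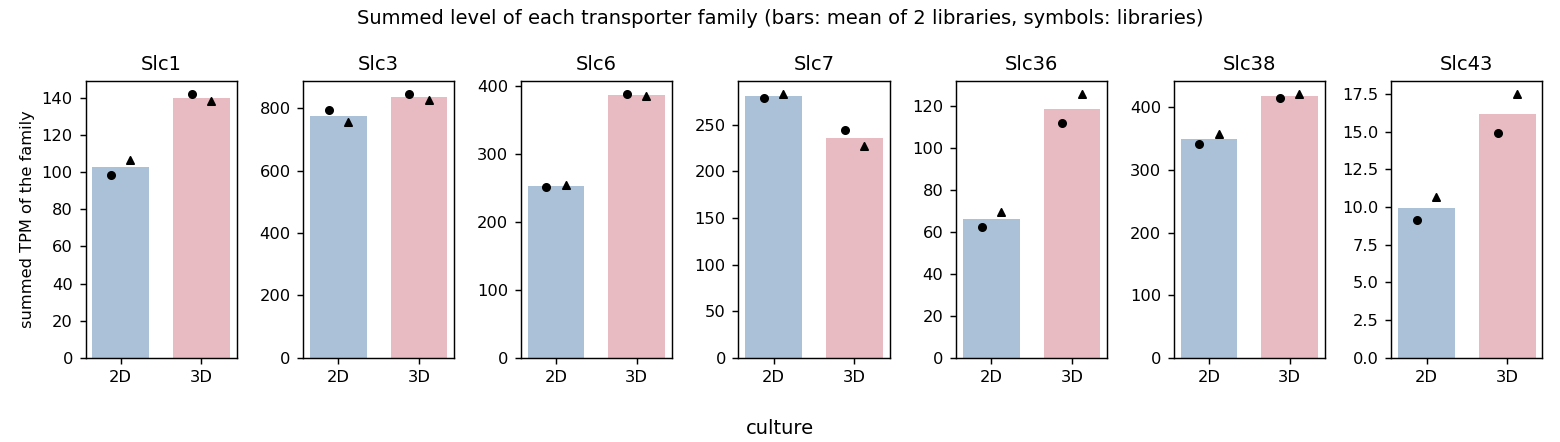
Summed TPM of each of the 7 transporter families in 2D and 3D, each panel with its own axis from 0. Bars give the mean of 2 libraries, circles replicate 1 and triangles replicate 2, and the Slc7 sum (with Slc7a6os) is the only one lower in 3D.

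Promoters were read for a pair of short motifs known from stress control of these carriers. TGATGNAA is the core of the C/EBP-ATF element bound by ATF4, the factor that raises transporter genes when amino acids are scarce, and TGACNNNGC is the core of the antioxidant response element bound by NRF2. RefSeq promoters (GRCm38.p6, from 250 bases before the start site to 50 after it, both strands searched) were matched by symbol for 24 of the 32 tested members, which have 39 promoters. TGATGNAA was in 10.3% of these and in 3.97% of all 32851 promoters of the table, and TGACNNNGC in 23.1% and 12.4%. The shares of the tested members rest on 4 and 9 promoters. Promoters of a gene can overlap, so 1 site can count in more than 1 of them, as for Slc7a6 and Slc7a7. By gene, TGATGNAA was found for 3 of the 24 members and 1219 of all 27025 genes with a promoter. TGACNNNGC was found for 7 and 3781. The first was found for Slc1a4, Slc7a7 and Slc7a11, and the second for Slc36a1, Slc38a2, Slc6a13, Slc6a16, Slc6a9, Slc7a1 and Slc7a6. The stretches printed are those of the 4 members with the highest mean TPM, in whichever culture was higher, among these 10. Slc7a11, a gene known for both kinds of control, was added after its values were seen, because it holds the motif on both strands. Each stretch runs 5′ to 3′ on the strand of the gene from 100 bases before the start site, with the motif in capitals. It ends at the base before the start site or, for Slc36a1 and Slc1a4, at the last base of the motif, which ends past it. In Slc1a4, and in the second copy of Slc7a11, the capitals are the motif as read from the opposite strand.
Slc38a2 (chr15:96699729-96699828, minus strand): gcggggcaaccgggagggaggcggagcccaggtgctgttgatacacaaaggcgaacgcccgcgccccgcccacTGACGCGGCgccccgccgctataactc
Slc36a1 (chr11:55204240-55204349, plus strand): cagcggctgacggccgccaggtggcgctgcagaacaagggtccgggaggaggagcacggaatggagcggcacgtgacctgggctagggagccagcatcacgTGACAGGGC
Slc1a4 (chr11:20332710-20332813, minus strand): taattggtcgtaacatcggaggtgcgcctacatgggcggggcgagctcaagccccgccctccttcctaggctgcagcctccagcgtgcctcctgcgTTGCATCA
Slc7a6 (chr8:106168821-106168920, plus strand): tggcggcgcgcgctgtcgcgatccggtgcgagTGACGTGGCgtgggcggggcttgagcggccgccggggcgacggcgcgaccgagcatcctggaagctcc
Slc7a11 (chr3:50443614-50443713, minus strand): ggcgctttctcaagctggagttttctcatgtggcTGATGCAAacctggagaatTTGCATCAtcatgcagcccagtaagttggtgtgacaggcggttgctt
Among these 5 genes, Slc38a2, Slc36a1 and Slc1a4 rose in 3D while Slc7a6 and Slc7a11 were not called. Slc7a6 has another annotated start site 67 bases upstream of the one used for its stretch. A match of these letters is a description of the sequence and not a binding site.

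Of the heavy chains, Slc3a1 fell and Slc3a2 was not called. Slc3a2 (ENSMUSG00000010095, chromosome 19, 8706882 to 8723369, minus strand), known as CD98 heavy chain or 4F2hc, was the most abundant member. It stood at 789.8 and 750.1 TPM in 2D and at 841.8 and 823.0 TPM in 3D. The 3D libraries were higher by a small margin that did not pass the threshold, with a log2 fold change of 0.11 (95% confidence interval 0.0066 to 0.22, limma adjusted p 0.0746). It passed without 2D replicate 1 (adjusted p 0.0392, limma) and after rescaling without mitochondrial and the 20 highest genes (0.0470). Slc3a1 (ENSMUSG00000024131, chromosome 17, 85028347 to 85064243, plus strand), the heavy chain rBAT that pairs with the cystine carrier Slc7a9, fell from 5.15 and 6.26 TPM to 2.69 and 2.56 TPM. The difference was -0.88 in log2 units (limma adjusted p 0.00528, SE 0.12). Slc7a9 itself had a mean of 0.266 TPM in 2D and 0.519 TPM in 3D and was below the minimum for testing. Slc3a1 overlaps the expressed gene Prepl on the opposite strand. The RNA ratio of Slc3a2 to Slc3a1 was 153.4 and 119.8 in 2D and 312.7 and 321.7 in 3D.

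Among the light chains that pair with Slc3a2, the large neutral amino acid exchanger Slc7a5 (LAT1, ENSMUSG00000040010, chromosome 8, 121881150 to 121907694, minus strand) fell. Its level was 54.6 and 58.0 TPM in 2D and 43.02 and 43.3 TPM in 3D, a log2 difference of -0.37 (limma adjusted p 0.00584, SE 0.055). The cultures did not overlap. Slc7a8 (LAT2), which accepts small and large neutral amino acids, had 9.80 and 10.5 TPM in 2D and 13.3 and 11.8 TPM in 3D. It was not called (log2 fold change 0.28, 95% confidence interval 0.04 to 0.53, limma adjusted p 0.0591), but passed after centring on the median (0.0436) or rescaling (0.0474). The ratio of Slc7a8 to Slc7a5 was 0.180 in both 2D libraries against 0.309 and 0.273 in 3D.

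Of the carriers of system y+L, which let cationic amino acids out in exchange for neutral ones, Slc7a7 rose and Slc7a6 was not called. Slc7a7 (y+LAT1, ENSMUSG00000000958, chromosome 14, 54369442 to 54417780, minus strand) had 19.1 and 21.9 TPM in 2D and 36.3 and 26.7 TPM in 3D. Both 3D libraries were above both 2D libraries, and replicate 1 of 3D was well above replicate 2. It rose with a log2 difference of 0.58 (limma adjusted p 0.0396, SE 0.16). That call was lost without 2D replicate 1 (0.186), without 2D replicate 2 (0.105) and without 3D replicate 1 (0.0901, where the log2 fold change was 0.37), and with the replicate number as a block (0.0758), a constant prior variance (0.0618) or no minimum on TPM (0.0893). Slc7a7 overlaps Oxa1l on the opposite strand. Slc7a6 (y+LAT2, ENSMUSG00000031904, chromosome 8, 106168857 to 106198706, plus strand) had 44.4 and 41.6 TPM in 2D against 39.3 and 33.2 TPM in 3D. It was not called (log2 fold change -0.24, 95% confidence interval -0.50 to 0.01, limma adjusted p 0.0963), though it passed without 3D replicate 1 (0.0457). The ratio of Slc7a7 to Slc7a6 was 0.430 and 0.527 in 2D and 0.925 and 0.804 in 3D.

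The remaining light chains were low. Slc7a10 (asc-1), an exchanger of small neutral amino acids and D-serine, had 3.82 and 5.86 TPM in 2D and 2.24 and 1.57 TPM in 3D. It fell by 0.99 in log2 units (limma adjusted p 0.0210, SE 0.22), and the call was lost without 2D replicate 2 (0.0608), without 3D replicate 2 (0.0865) and with no minimum on TPM (0.0511). Slc7a11 (xCT), the cystine-glutamate exchanger that feeds glutathione synthesis, stayed between 3.06 and 3.32 TPM in the 4 libraries. It differed by 0.05 on the log2 scale (95% confidence interval -0.22 to 0.32, limma adjusted p 0.715). Summed over these 6 light chains, the RNA level was 134.9 and 140.9 TPM in 2D and 137.5 and 119.8 TPM in 3D, so the cultures overlapped. Within that sum the share of Slc7a5 was 40.5% and 41.2% in 2D and 31.3% and 36.1% in 3D, while Slc7a7 went from 14.2% and 15.6% to 26.4% and 22.3%. Slc3a2 RNA exceeded the light chain sum 5.86 and 5.32 times in 2D and 6.12 and 6.87 times in 3D.

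**Figure D4:**
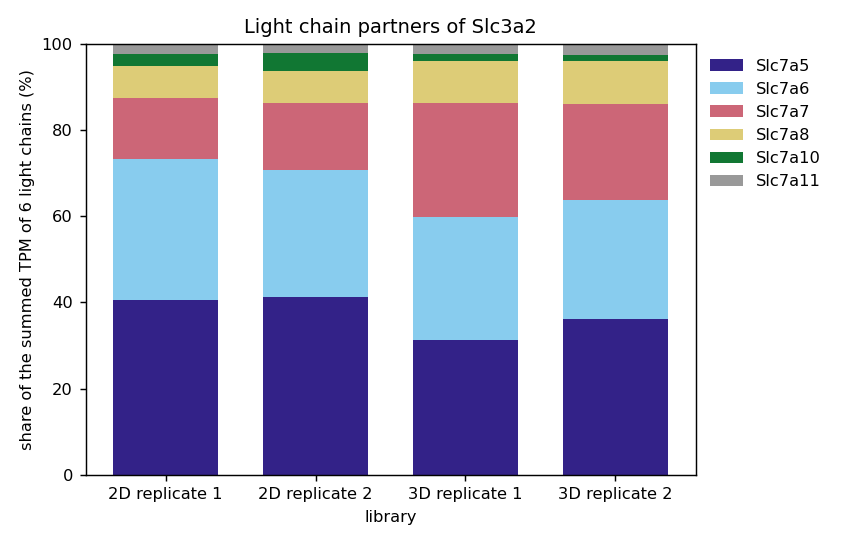
Share (%) of each of 6 light chain genes in their summed TPM, by library. The Slc7a5 share is between 40.5% and 41.2% in 2D and between 31.3% and 36.1% in 3D, and the Slc7a7 share is larger in both 3D libraries.

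The carriers of cationic amino acids (CAT group) work without a heavy chain. Slc7a1 (CAT1, ENSMUSG00000041313, chromosome 5, 148327410 to 148399904, minus strand), the main arginine and lysine importer of dividing cells, was the only one above 3 TPM. It fell from 40.6 and 45.4 TPM in 2D to 27.1 and 26.6 TPM in 3D, a log2 difference of -0.65 (limma adjusted p 0.00282, SE 0.074). Slc7a3 (CAT3) stood between 1.85 and 2.57 TPM in the 4 libraries with overlapping cultures (log2 fold change -0.09, 95% confidence interval -0.50 to 0.32, limma adjusted p 0.670), and its difference turned to 0.08 without 2D replicate 1. Slc7a4, which resembles the group but has no settled substrate, had 0.916 and 0.858 TPM in 2D and 1.55 and 1.83 TPM in 3D. It rose by 0.51 in log2 units (limma adjusted p 0.0326, SE 0.13), but the call was lost whichever of the 4 libraries was left out, at 0.0883 and 0.103 without replicates 1 and 2 of 2D and at 0.0748 and 0.142 without those of 3D, with the replicate block (0.0600) and with no minimum on TPM (0.0610). Slc7a4 overlaps the expressed gene P2rx6 on the opposite strand. Slc7a2 (CAT2), the CAT of adult liver, was listed at 0.0159 to 0.126 TPM, and Slc7a14 at 0.0067 to 0.246 TPM.

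The neutral exchangers of Slc1 went in opposite directions. Slc1a4 (ASCT1, ENSMUSG00000020142, chromosome 11, 20302180 to 20332713, minus strand), which carries alanine, serine, cysteine and threonine, had 53.6 and 55.6 TPM in 2D and 104.1 and 103.0 TPM in 3D. The gap between the cultures was far wider than that between replicates, and the log2 fold change was 0.91 (limma adjusted p 0.000457, SE 0.046). Slc1a5 (ASCT2, ENSMUSG00000001918, chromosome 7, 16781340 to 16798274, plus strand), which also takes glutamine, fell from 42.8 and 48.4 TPM to 35.7 and 33.2 TPM. Its difference was -0.39 in log2 units (limma adjusted p 0.0171, SE 0.083) and did not pass without 3D replicate 2 (0.0803). The ratio of Slc1a4 to Slc1a5 RNA was 1.25 and 1.15 in 2D and 2.92 and 3.10 in 3D. The Slc1a4 promoter shown above holds the ATF4-type motif at its start site. Of the 4 high-affinity carriers of glutamate and aspartate only Slc1a2 (GLT-1) reached a mean of 1 TPM, at 1.82 and 1.798 TPM in 2D and 1.51 and 1.34 TPM in 3D. It was not called (log2 fold change -0.21, 95% confidence interval -0.53 to 0.11, limma adjusted p 0.207).

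The sodium- and chloride-driven Slc6 family had the largest rise in summed TPM of the 7 families, 133.6 TPM, of which 114.1 TPM came from the carriers of GABA, betaine, taurine and creatine. Slc6a6 (TauT, ENSMUSG00000030096, chromosome 6, 91684053 to 91759066, plus strand), which imports taurine, a bile acid conjugate partner and osmolyte, stood at 70.0 and 71.5 TPM in 2D and at 139.1 and 133.4 TPM in 3D. It rose by 0.94 in log2 units (limma adjusted p 0.000442, SE 0.046), with a ratio of the means of 1.93. Slc6a8 (ENSMUSG00000019558, chromosome X, 73673150 to 73682502, plus strand), the creatine carrier, was the second most abundant member, with 151.3 and 151.5 TPM in 2D and 197.7 and 199.2 TPM in 3D. Replicates differed by less than 2 TPM, and the log2 fold change was 0.39 (limma adjusted p 0.00173, SE 0.036). Slc6a13 (GAT2), a liver carrier of GABA and taurine, had 10.4 and 10.6 TPM against 13.3 and 13.2 TPM. Its log2 fold change of 0.30 (limma adjusted p 0.0232, SE 0.071) lost its call whichever library was left out, at 0.0704 and 0.0558 without replicates 1 and 2 of 2D and at 0.108 and 0.0993 without those of 3D, with the replicate block (0.0584) and with no minimum on TPM (0.0548). Its neighbour Slc6a12 (BGT1), the betaine carrier, had 1.82 and 2.98 TPM in 2D and 1.65 and 1.09 TPM in 3D and was not called (log2 fold change -0.51, 95% confidence interval -1.12 to 0.09, limma adjusted p 0.128).

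Of the glycine, proline and neutral amino acid carriers of Slc6, Slc6a9, Slc6a19 and Slc6a20a rose, and 6 were under 1 TPM. Slc6a16 and Slc6a18 were also called higher, but had passed the minimum only through 3D. The largest fold change of any member belonged to Slc6a16 (ENSMUSG00000094152, chromosome 7, 45241085 to 45273367, plus strand), an orphan of the family whose substrate is not settled. It had 0.335 and 0.250 TPM in 2D and 6.88 and 5.50 TPM in 3D, so that both 2D libraries were low and both 3D libraries far above them. Its log2 fold change was 2.47 (limma adjusted p 0.000612, SE 0.15) on the log2(TPM + 1) scale, which understates low genes, and the ratio of the means was 21.1. Slc6a18 (ENSMUSG00000021612, chromosome 13, 73661752 to 73678023, minus strand), best known from the kidney brush border, had 0.320 and 0.328 TPM in 2D and 2.86 and 2.37 TPM in 3D. This is a log2 difference of 1.44 (limma adjusted p 0.00194, SE 0.14), with a ratio of means of 8.06. Slc6a19 (B0AT1, ENSMUSG00000021565, chromosome 13, 73679745 to 73704865, minus strand), the neutral amino acid importer of intestine and kidney, lies 1.72 kb from Slc6a18 on the same strand with no coding gene between. It rose from 2.68 and 2.31 TPM to 5.59 and 4.46 TPM (log2 fold change 0.78, limma adjusted p 0.0109, SE 0.14), and narrowly lost its call without 3D replicate 1 (0.0511).

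Slc6a9 (GlyT1), which imports glycine, had 10.4 and 10.8 TPM in 2D and 15.3 and 15.5 TPM in 3D. The cultures were well apart, with a log2 difference of 0.50 (limma adjusted p 0.00518, SE 0.071). Slc6a9 overlaps B4galt2 on the opposite strand. Slc6a20a (SIT1), the proline carrier, had 2.92 and 3.03 TPM in 2D but 4.73 and 8.65 TPM in 3D, the widest replicate gap among the members tested. Its log2 fold change of 0.90 (limma adjusted p 0.0435, SE 0.26) passed, but the call was lost without 2D replicate 1 (0.179), without 2D replicate 2 (0.164) and without 3D replicate 2 (0.0600, where the fold change was 0.53). It was also lost with a pseudocount of 5 (0.0545), with a constant prior variance (0.0625) and with no minimum on TPM (0.0959). Slc6a20b, a near copy 2.20 kb away, was listed at 0.0135 to 0.0444 TPM, and the split of reads between the copies is uncertain.

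Of the carriers known from lysosomes, Slc36a1 and Slc38a7 rose and Slc38a9 fell. Slc36a1 (PAT1, ENSMUSG00000020261, chromosome 11, 55204350 to 55236330, plus strand), which moves small neutral amino acids with protons across the lysosomal and plasma membranes, had 61.7 and 69.5 TPM in 2D and 111.3 and 125.0 TPM in 3D. The spread within each culture was much smaller than the gap, and the log2 fold change was 0.84 (limma adjusted p 0.00234, SE 0.088). Slc36a2, Slc36a3 and Slc36a4 stayed between 0 and 0.408 TPM. Slc38a7 (ENSMUSG00000036534, chromosome 8, 95835920 to 95853539, minus strand), which exports glutamine and asparagine from lysosomes, rose from 43.8 and 47.8 TPM to 63.8 and 64.4 TPM (log2 fold change 0.48, limma adjusted p 0.00409, SE 0.062). Slc38a9, the lysosomal arginine sensor that signals to mTORC1, had 9.71 and 10.4 TPM in 2D and 7.68 and 5.87 TPM in 3D. It fell by 0.51 in log2 units (limma adjusted p 0.0345, SE 0.14), a call lost without 2D replicate 1 (0.0901), without 2D replicate 2 (0.126), without 3D replicate 2 (0.0974) and with no minimum on TPM (0.0786). It was the only tested member of Slc38 that fell.

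The Slc38 carriers of the plasma membrane take up glutamine, alanine and other small neutral amino acids with sodium. Slc38a2 (SNAT2, ENSMUSG00000022462, chromosome 15, 96687392 to 96699730, minus strand), the system A carrier that cells raise when amino acids run low or the medium is hypertonic, had 145.9 and 150.5 TPM in 2D and 177.4 and 176.5 TPM in 3D. Its log2 fold change was small, 0.25 (limma adjusted p 0.00683, SE 0.039), and the adjusted p was 0.0536 without 3D replicate 1 and 0.05001, just over the threshold, without 3D replicate 2. Slc38a3 (SNAT3, ENSMUSG00000010064, chromosome 9, 107650634 to 107669530, minus strand), the system N glutamine carrier of hepatocytes, rose from 2.73 and 4.27 TPM to 9.69 and 10.1 TPM. Its log2 fold change of 1.29 (limma adjusted p 0.00542, SE 0.18) was the largest in the family. Slc38a10 and Slc38a6 were grouped apart from these system A and system N carriers, and their place in the cell was not examined. Slc38a10, which carries glutamine, glutamate and aspartate, had 97.7 and 102.9 TPM in 2D and 112.7 and 122.5 TPM in 3D (log2 fold change 0.23, limma adjusted p 0.0338, SE 0.060). That call was lost without 2D replicate 1 (0.108), 2D replicate 2 (0.0545) or 3D replicate 2 (0.148), with a constant prior variance (0.0705) and with no minimum on TPM (0.0784). Slc38a6 lay between 39.6 and 41.6 TPM in all libraries, with a log2 fold change of 0.04 (95% confidence interval -0.09 to 0.18, limma adjusted p 0.515).

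Slc43a2 (LAT4, ENSMUSG00000038178, chromosome 11, 75531694 to 75577575, plus strand), a uniporter that lets branched-chain and aromatic amino acids flow down their gradient, had 8.87 and 10.4 TPM in 2D and 14.8 and 17.2 TPM in 3D. It rose by 0.68 in log2 units (limma adjusted p 0.00991, SE 0.12), in the opposite direction to Slc7a5, which exchanges the same kinds of amino acid. Its relatives Slc43a1 and Slc43a3 reached at most 0.117 and 0.244 TPM in any library. Slc7a6os, the member that is no transporter, fell from 99.6 and 93.4 TPM to 75.5 and 76.2 TPM (log2 fold change -0.34, limma adjusted p 0.00613, SE 0.051). It lies 2.01 kb from Slc7a6 on the other strand. Without it 17 members rose and 6 fell.

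Among the 29 members with a mean under 1 TPM were carriers that adult liver is known for. Slc38a4, a system A carrier of hepatocytes, was listed at 0 in a library of each culture and reached 0.0947 TPM at most, and Slc7a2 and Slc43a1 reached at most 0.126 and 0.117 TPM. Slc38a1, which shares a gene cluster with Slc38a2, was the highest of the 29, at 0.890 and 1.10 TPM in 2D and 0.910 and 0.566 TPM in 3D, and it was the only one to reach 1 TPM in a library. Its mean of 0.867 TPM lay just outside the minimum, and Slc7a4, at a mean of 1.29 TPM, was the lowest member inside it. Among the 29, 8 were listed at 0 in at least 1 library, and the cultures did not overlap for 12 of them, 10 higher and 2 lower in 3D. No share over all genes under 1 TPM was computed to set beside this count. Lack of overlap says little for a single gene here, as the smallest exact permutation p for 2 libraries against 2 is 0.333. When all genes were fitted with no minimum, 0 of the 29 had a limma adjusted p under 0.05 and 2 (Slc38a11 and Slc7a14) had an unadjusted p under 0.05. Listed zeros need not mean absence, as the mitochondrial gene mt-Atp6, used by every cell, was listed at 90.95 TPM in 2D replicate 1 and under 0.05 TPM in the other libraries.

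Levels were also set side by side for members that lie near each other. There were 14 pairs of members within 500 kb, 10 of them with no coding gene between. In 7 of the 14 only 1 gene was expressed highly enough to be tested. With 32 of all 61 members tested, such mixed pairs are also likely among members that are not neighbours, and no share for those was computed. Slc36a1 rose at a mean of 65.6 TPM in 2D and 118.2 TPM in 3D, while Slc36a2, 19.3 kb away, had 0.101 and 0.148 TPM. Slc38a2 has Slc38a1 at 44.5 kb and Slc38a4 at 295.1 kb, both under 1 TPM in their means. Slc6a16 rose to a mean of 6.19 TPM beside Slc6a21, 4.15 kb away, at 0.0404 TPM. In 4 pairs both genes were tested, and in 1 of these, Slc6a18 and Slc6a19, both were called in the same direction. Slc6a18 was tested only because of its level in 3D, so the place of this pair in the count depends on the difference itself. No share of such pairs among other neighbouring genes was computed.

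Genes that work with these carriers were counted in the same fit. Of 23 tested genes of the amino acid deprivation response, ATF4 and its usual targets, 7 were higher and 13 lower in 3D (87.0% called, against 50.5% of all genes), with a median log2 fold change of -0.19. Ddit3 (CHOP) fell by 0.21, Shmt2 and Mthfd2, enzymes of mitochondrial one-carbon metabolism, fell by 1.26 and 1.11, and Cebpb rose by 0.23 in log2 units (limma adjusted p 0.0167, 0.000241, 0.000266 and 0.0236). Atf5 was not called (0.11, limma adjusted p 0.0550). Left out in turn, single libraries took the count from 20 to between 11 and 17, the lowest being without 3D replicate 1 (3 higher, 8 lower) and without 3D replicate 2 (2 higher). Of the 20 cytosolic aminoacyl-tRNA synthetases, which load amino acids on tRNA and are partly under ATF4, 2 were higher and 14 lower (80.0% called), with a median of -0.34. Lars and Yars fell by 0.77 and 0.74, Nars by 0.30 and Aars by 0.15, whereas Vars rose by 0.37 in log2 units (limma adjusted p 0.000494, 0.000757, 0.00276, 0.0237 and 0.00175). The count higher was 1 without 2D replicate 1, without either 3D replicate and with the replicate block.

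Of 30 genes of lysosomal amino acid sensing for mTORC1, 11 were higher and 3 lower, with a median of 0.19. The 46.7% called is near the 50.5% of all genes tested, of which 23.4% were higher and 27.1% lower. Lamtor1, Rragc and Rragb, parts of the Ragulator and Rag GTPase platform, rose by 0.57, 0.70 and 0.97 in log2 units (limma adjusted p 0.000581, 0.000689 and 0.00137). They are named for their level or size of change, and other parts of that platform were higher, lower or not called. Sesn2, a leucine sensor that the ATF4 list also holds, was at 0.03 (limma adjusted p 0.661). Amino acid and peptide carriers of other families had 5 of 14 higher and 0 lower by limma, also 0 lower at an unadjusted p under 0.05 (35.7% called, under the 50.5% of all genes), with a median of 0.26. Those named by the rule were the lysosomal cystine exporter Ctns at 0.58, the ornithine carrier Slc25a15 at 0.84 and the vesicular glutamate carrier Slc17a8 at 1.67 (limma adjusted p 0.00226, 0.00303 and 0.00278). Slc17a8 had 0.506 and 0.609 TPM in 2D and 4.78 and 3.26 TPM in 3D, and was tested only because of its level in 3D. The abundant Slc25a39 was at 0.62 with an adjusted p of 0.0523, and Slc15a4 at 0.21 with 0.195. Of 6 tested partners that traffic or control the carriers, 2 were higher and 3 lower (83.3% called), with a median of -0.11. The kinase Sgk1, which stabilises several carriers at the membrane, went from 80.1 and 83.3 TPM in 2D to 198.5 and 201.9 TPM in 3D (log2 fold change 1.28, limma adjusted p 0.000241). Arl6ip5, a regulator of glutamate carriers, fell by 0.57, Cd44, which stabilises Slc7a11, by 0.26 (limma adjusted p 0.000909 and 0.00877), and Bsg was not called (0.03, adjusted p 0.748). Without 3D replicate 1 the partners gave 3 calls, 1 of them lower.

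**Figure D5:**
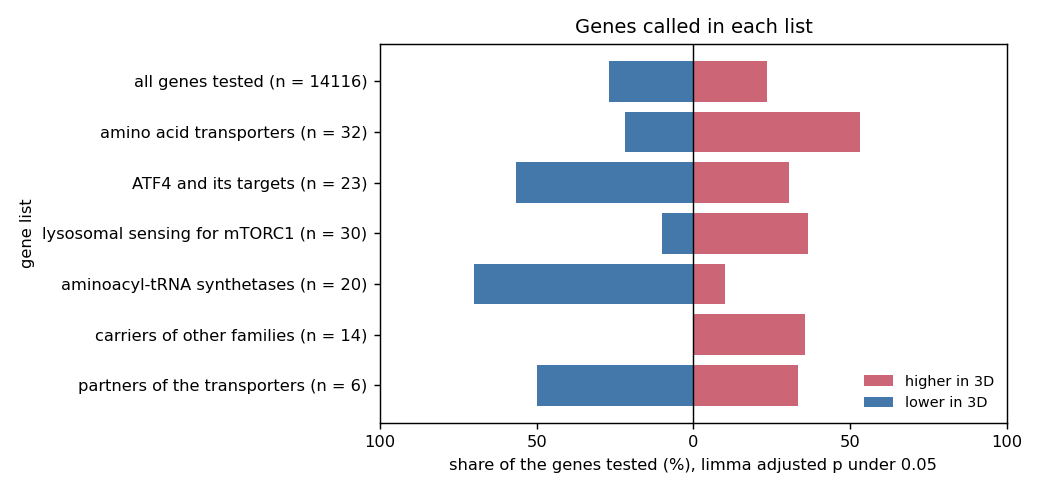
Share (%) of the genes tested in each list that were higher (red, to the right) or lower (blue, to the left) in 3D at a limma adjusted p under 0.05, beside all 14116 genes tested. The transporters have 53.1% higher and 21.9% lower, whereas the ATF4 list and the aminoacyl-tRNA synthetases have more genes lower than higher.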

How the data were processed

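RNA-seq libraries were made with a stranded mRNA kit from AML12 cells (2D, n = 2, and 3D, n = 2). Per the labels and the study's methods, reads were trimmed (cutadapt 1.8.3, Trimmomatic 0.36), aligned in stranded mode to GRCm38 (HISAT2 2.0.5) and quantified over the Ensembl release 93 annotation (StringTie 1.3.4). The authors deposited unpooled TPM, with a column per library. A fold change and a p-value per gene from the authors' DESeq2 comparison of the cultures stand in the same table and were not used. TPM keeps no depth, so no counting interval or detection limit was computed, and tests on counts could not be run.

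Members were found by gene symbol and biotype, and all 61 were found in GENCODE M21 by identifier. Positions are those of the table, on GRCm38. Genes with a mean of at least 1 TPM over 4 libraries entered a limma fit (version 3.58.1, R 4.3.3) of log2(TPM + 1) on culture alone, with a trended and robust prior, two-sided p-values and Benjamini-Hochberg adjustment over the 14116 genes tested. The pseudocount of 1 shrinks the fold changes of low genes. The limma step was tested on simulated data. Sums, ratios and motif searches were made with Python 3.11.15, and figures with matplotlib 3.10.9.

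The members, gene lists, motifs and tests were chosen with earlier results of these data known. Every member may be named, and of each other list the 3 highest in TPM and the 2 with the largest called change. Marker genes are named as the defining ones of their list or by that same rule, and the hepatocyte markers that were not tested are named as well. Promoters are shown for up to 4 tested members with a motif, the highest in TPM first. Alternatives were pseudocounts of 0.1 and 5, no minimum and a minimum of 5 TPM, a replicate block, quantile normalization, centring on the median, TPM rescaled after mitochondrial genes and the 20 highest were removed, a constant prior variance, each library left out in turn, Slc7a6os left out, and the highest member of each family left out of its sum.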

Additional observations from a re-analysis of the deposited data

How the results depend on the processing

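None of the 405 values of single members under 13 alternatives turned a call round. In 40 of them a call was lost and in 5 a call was gained, over 13 members, and 19 members had neither. Replicate numbers were not treated as pairs, since libraries with the same number shared no deviation from their culture mean (correlation -0.0549 over 14116 genes). A fit with the replicate block called 6247 genes against 7122, and 21 members (14 higher, 7 lower) against 24, Slc7a7, Slc7a4 and Slc6a13 being lost. The aminoacyl-tRNA synthetases higher in 3D then numbered 1 against 2. With no minimum 12 members were higher and 5 lower, with unchanged log2 fold changes. With a minimum of 5 TPM, which leaves 21 members tested, the counts were also 12 and 5, but of partly different genes. The calls missing there were those of members with a mean under 5 TPM, which were not fitted. The cause of the calls lost with no minimum was not tested.

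With each library left out in turn, 4720 to 5954 genes were called, 2129 to 2957 of them higher and 2571 to 3243 lower. Members gave 16 to 20 calls, 12 to 13 higher and 4 to 8 lower, the lowest count of lower members being without 3D replicate 2. The ATF4 list gave 11 to 17 (2 to 7 higher, 8 to 11 lower), aminoacyl-tRNA synthetases higher in 3D 1 to 2, and the partners 3 to 5 (1 to 3 lower). The log2 ratio of the Slc7 sums lay between -0.30 and -0.20.

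The log2 ratio of summed TPM turned to -0.40 for Slc1 without Slc1a4, to -1.12 for Slc3 without Slc3a2 and to -0.75 for Slc43 without Slc43a2, since the sums lose their leading member. For Slc6 it was 0.64 after rescaling, 0.65 after quantile normalization and 0.89 without Slc6a8, against 0.61, and for Slc36 it was 0.51 without Slc36a1, against 0.85. The members left in Slc36 and in Slc43 were all under 1 TPM and not tested, so the ratios of these families without their leading member rest on very low levels. Depth is unknown, so differences among members under 1 TPM could not be weighed against counting error, and 2 libraries a culture limit the precision of every value.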
